A study of Mus musculus with 5 samples.

Results

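The adrenergic receptors are the cell surface receptors for noradrenaline and adrenaline. Their RNA was examined in the right brain hemisphere for 8 genes, the alpha1 receptors Adra1a, Adra1b and Adra1d, the alpha2 receptors Adra2a, Adra2b and Adra2c, and the beta receptors Adrb1 and Adrb3. The genes were taken by symbol from the 47729 genes of the count table, and all 8 were found and had enough counts to be tested. The samples came from male C57BL/6 mice, an inbred laboratory strain, at an age of 5 months. Each of the 5 samples gave 1 mRNA sequencing library, and all 5 form 1 group, so no treatment, genotype or age was compared with another. No label says that the samples are separate animals, although they are called animals here, and any p-value given reflects the spread among these samples alone, some or all of which may be technical. Animals are numbered in accession order, and the number is only a name. This leaves comparisons of the receptor genes within each brain, and comparisons among the animals.

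In the brain, noradrenaline is released mainly by neurons of the locus coeruleus, a small nucleus of the brainstem whose fibres reach nearly the whole forebrain, where it acts on arousal, attention and memory. Alpha1 receptors couple to the Gq protein, which activates phospholipase C and releases calcium from stores. Alpha2 receptors couple to Gi and Go, which lower cyclic AMP and open potassium channels, and they include the autoreceptors through which noradrenergic neurons limit their own release. Beta receptors couple to Gs, which raises cyclic AMP.

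Library depth ran from 13184234 to 15570064 counts. In all 10 pairs of libraries the counts differed by more than counting noise (chi-square per degree of freedom 2.45 to 4.29), so each was counted as 1 sample, although separate preparations from 1 brain would also differ so. Markers of neurons, astrocytes, oligodendrocytes and their precursors, microglia, endothelium and mural cells of vessels were all present, with all members of each list at a mean of at least 1 RPKM. RPKM is the count scaled by gene length (in kilobases) and by the total count of its library. In a bulk sample such as a hemisphere, fewer cells of a type and less RNA per cell cannot be told apart.

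The 8 genes are separate genes on 6 chromosomes that descend from a common ancestor, and their kinship is visible in the coding sequence. Over the aligned coding sequence, 2 receptors of the same class (alpha1, alpha2 or beta) shared 56.6% to 64.2% of bases in 7 pairs, and 2 receptors of different classes shared 46.0% to 52.6% in 21 pairs. The stretch shown here is the 60-base coding window with the highest identity among all 8, and it is shown for the bases that the whole family shares. It encodes part of the seventh membrane-spanning segment, which holds an asparagine-proline motif common to receptors of this superfamily. All 8 windows lie within 1 exon, and each is written 5′ to 3′ on the gene's own strand with its GRCm38 position. The windows are at chr14:66727481-66727540 on the plus strand for Adra1a, chr11:43776365-43776424 on the minus strand for Adra1b and chr2:131546446-131546505 on the minus strand for Adra1d. They are at chr19:54047478-54047537 for Adra2a, chr2:127364792-127364851 for Adra2b and chr5:35281125-35281184 for Adra2c, all on the plus strand. They are at chr19:56723410-56723469 on the plus strand for Adrb1 and chr8:27227391-27227450 on the minus strand for Adrb3. Capitals mark the positions with the same base in all 8 genes.
Adra1a: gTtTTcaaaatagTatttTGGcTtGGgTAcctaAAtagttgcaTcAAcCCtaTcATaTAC
Adra1b: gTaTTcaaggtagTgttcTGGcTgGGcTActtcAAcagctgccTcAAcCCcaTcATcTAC
Adra1d: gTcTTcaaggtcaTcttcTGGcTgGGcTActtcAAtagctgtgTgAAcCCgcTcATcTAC
Adra2a: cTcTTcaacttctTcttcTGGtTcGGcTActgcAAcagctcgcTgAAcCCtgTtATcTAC
Adra2b: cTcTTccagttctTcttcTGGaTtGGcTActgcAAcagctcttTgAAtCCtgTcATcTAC
Adra2c: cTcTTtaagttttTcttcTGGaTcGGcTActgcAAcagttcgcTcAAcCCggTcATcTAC
Adrb1: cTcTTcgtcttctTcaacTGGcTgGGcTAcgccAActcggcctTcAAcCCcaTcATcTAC
Adrb3: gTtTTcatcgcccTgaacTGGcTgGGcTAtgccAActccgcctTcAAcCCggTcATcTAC

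In this window 25 of the 60 positions (41.7%) carry the same base in all 8 genes, and the mean identity over pairs is 70.8%, against 54.7% over the 898 alignment columns without a gap. Even here the capitals are broken up by variable bases. The longest run of identical bases between any 2 receptors was 30 bases, shared by Adrb1 and Adrb3, followed by 26 bases shared by Adra2a and Adra2c. No receptor shared more than 0.390% of its 50-base words (Adrb1) with transcripts of other annotated genes on the same strand. On the opposite strand, 19.2% of the words of Adrb3 lie in Gm45470, an annotated gene that shares 839 exon bases with it and is not used here. For Adra1d the share was 5.35%, with Gm14285, which shares 147 exon bases and had only 5 to 10 counts per library. The strand setting of the counting is not given in the sources used here. Within the shared exon bases, reads from Adrb3 or Adra1d and from these partners therefore cannot be told apart.

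Among these 8 genes, alpha1 receptor RNA was the most abundant class, with a summed level of 16.8 ± 1.07 RPKM (mean ± SD over 5 animals, as throughout). The 3 alpha2 genes summed to 14.2 ± 0.656 RPKM and the 2 beta genes to 11.4 ± 0.464 RPKM. As shares of the receptor total of 42.4 ± 1.59 RPKM, these were 39.7% ± 1.39 for alpha1, 33.4% ± 1.54 for alpha2 and 26.9% ± 0.596 for beta. The shares kept this order in all 5 animals, with alpha1 between 37.7% and 41.4%, alpha2 between 31.5% and 35.7% and beta between 26.1% and 27.5%. Within each class 1 gene was rare or much lower than the others, namely Adra1a, Adra2b and Adrb3. A further beta receptor gene was not analysed here, so the beta sum, the shares and the class order hold for these 8 genes only. The place of alpha1 above alpha2 also rests on dividing by gene length. Mean counts per library were 197, 255 and 265 for Adra1a, Adra1b and Adra1d. They were 322, 26.0 and 381 for Adra2a, Adra2b and Adra2c.

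Among the alpha1 genes, Adra1d was highest. Adra1d (ENSMUSG00000027335, chr2:131545850-131562283, minus strand) encodes the alpha1D receptor, known from cerebral cortex and hippocampus as well as from arteries. Its levels in animals 1 to 5 were 10.8, 8.14, 9.83, 9.61 and 10.8 RPKM, from 230 to 284 counts, a mean of 9.83 ± 1.09 RPKM. Animal 2 was lowest and animals 1 and 5 highest. The exact 95% Poisson interval of animal 2, 7.12 to 9.26 RPKM, did not overlap that of animal 1, 9.54 to 12.1 RPKM. These intervals cover counting error only, since no molecular identifiers are described and reads are then not independent molecules. Here and for the genes below, the animals compared were picked after their values were seen. How many of all genes would show such a gap was not counted. Over all tested genes, every pair of libraries differed by more than counting noise, so a gap is not particular to a receptor.

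Adra1b (ENSMUSG00000050541, chr11:43774606-43901210, minus strand) encodes the alpha1B receptor, known from thalamus and cerebral cortex. It measured 5.97, 5.52, 5.31, 4.77 and 4.91 RPKM in animals 1 to 5, from 219 to 278 counts, a mean of 5.30 ± 0.482 RPKM. Animal 1 was highest and animals 4 and 5 lowest, with overlapping counting intervals of 5.28 to 6.72 RPKM in animal 1 and 4.20 to 5.39 RPKM in animal 4. Adra1b did not follow Adra1d: animal 5 was among the highest for Adra1d and among the lowest for Adra1b. The 6 markers of mural cells, the contractile cells of vessels, were also highest in animal 1, at 97.9 RPKM in sum. They were lowest in animal 4 (84.2 RPKM) but did not follow Adra1b in animal 5, where they summed to 96.2 RPKM. Of the 6 markers, 3 had an unadjusted edgeR p under 0.05 and none was called. Their part in the level of Adra1b was not tested.

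Adra1a (ENSMUSG00000045875, chr14:66635251-66771168, plus strand), which encodes the alpha1A receptor, was the lowest alpha1 gene. Its levels in animals 1 to 5 were 1.61, 1.92, 1.89, 1.66 and 1.37 RPKM, from 147 to 233 counts, a mean of 1.69 ± 0.225 RPKM. Animal 5 was lowest, with an interval of 1.16 to 1.61 RPKM that did not reach that of animal 2, 1.68 to 2.19 RPKM. The level of Adra1a depends strongly on the length assigned to the gene. The deposited tables imply 8143 bases, while its longest annotated coding transcript has 4282 bases and would give 3.21 ± 0.428 RPKM. Under both lengths it stood below Adra1b and above Adrb3.

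Among the alpha2 genes, Adra2c was highest. Adra2c (ENSMUSG00000045318, chr5:35278319-35281763, plus strand) encodes the alpha2C receptor, known for its expression in striatum and hippocampus. It measured 8.44, 6.55, 7.67, 8.13 and 8.15 RPKM in animals 1 to 5, from 336 to 436 counts, a mean of 7.79 ± 0.743 RPKM. As for Adra1d, animal 2 was lowest, with an interval of 5.87 to 7.29 RPKM that did not overlap the 7.62 to 9.32 RPKM of animal 1. The other 4 animals lay close together.

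Adra2a (ENSMUSG00000033717, chr19:54044151-54048982, plus strand) encodes the alpha2A receptor, the main autoreceptor of noradrenergic neurons, which is also present on their target cells in the cortex. It measured 5.15, 6.31, 6.02, 6.52 and 5.57 RPKM in animals 1 to 5, from 262 to 386 counts, a mean of 5.91 ± 0.557 RPKM. Animals 1 and 5, the highest for Adra2c, were lowest here, and animals 4 and 2 were highest. The intervals of animals 1 and 4, 4.55 to 5.81 and 5.89 to 7.21 RPKM, did not overlap.

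Adra2b (ENSMUSG00000058620, chr2:127363208-127367221, plus strand) encodes the alpha2B receptor, known in the brain mainly from the thalamus and in the body from blood vessels. It was the rarest of the 8 genes, with 20, 31, 25, 34 and 20 counts in animals 1 to 5. These gave 0.372, 0.519, 0.439, 0.544 and 0.378 RPKM, a mean of 0.450 ± 0.0790 RPKM. At this depth the animals were not distinguishable: the interval of the lowest, 0.227 to 0.575 RPKM, held the values of all the others.

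Adrb1 was the highest of the 8 genes with the length implied by the deposited tables, though below Adra1d with either other length, and its coefficient of variation was the lowest. Adrb1 (ENSMUSG00000035283, chr19:56722199-56733113, plus strand) encodes the beta1 receptor, which drives the response of the heart to adrenaline and is widely expressed in forebrain neurons. It measured 11.4, 10.2, 10.5, 10.7 and 11.1 RPKM in animals 1 to 5, from 365 to 415 counts, a mean of 10.8 ± 0.474 RPKM. Its coefficient of variation of 4.39% was below the 5.12% that counting noise alone gives at this depth. All 5 counting intervals overlapped, from 10.3 to 12.6 RPKM in animal 1 to 9.19 to 11.3 RPKM in animal 2.

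Adrb3 (ENSMUSG00000031489, chr8:27225776-27250616, minus strand) encodes the beta3 receptor, best known from fat cells, where it drives lipolysis and heat production. It had 24, 34, 19, 26 and 25 counts in animals 1 to 5, or 0.620, 0.789, 0.462, 0.577 and 0.655 RPKM, a mean of 0.621 ± 0.119 RPKM. Animal 2 was highest and animal 3 lowest, with overlapping intervals of 0.547 to 1.10 and 0.278 to 0.722 RPKM. Fat cell markers were at or near 0: Adipoq, Plin1, Ucp1 and Lep each had at most 3 counts in any library, and only Cidea, at 3.20 ± 0.497 RPKM, was above 1 RPKM. The overlap of Adrb3 with a gene on the opposite strand applies to this level.

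**Figure D1:**
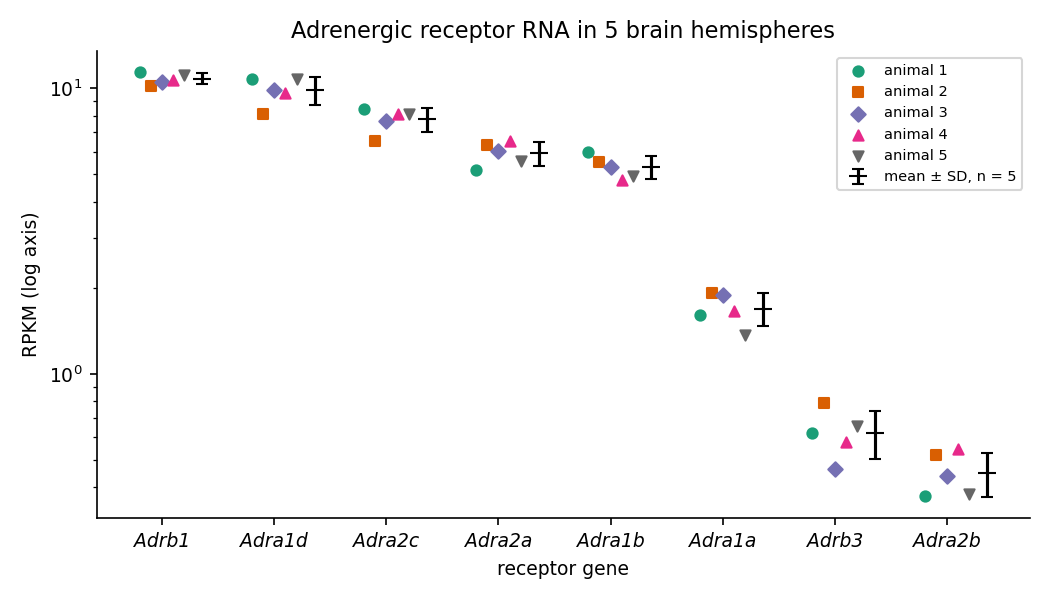
RPKM of each receptor gene (log axis) in animals 1 to 5, with the mean and SD over 5 animals as black bars. Adrb1, Adra1d, Adra2c, Adra2a and Adra1b lie between 4.77 and 11.4 RPKM, Adra1a lies below them, and Adrb3 and Adra2b lie below 1 RPKM in every animal.

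Set against all 14770 genes tested, the receptors were of ordinary abundance. Their median mean level was 5.60 RPKM, against 5.80 RPKM over all genes tested. Adrb1 stood above 67.2% of the tested genes, Adra1d above 64.9%, Adra2c above 57.9%, Adra2a above 50.5% and Adra1b above 47.3%. Adra1a stood above 22.6%, Adrb3 above 7.87% and Adra2b above 4.69%. A mean of at least 1 RPKM was reached by 6 of the 8 receptors, and by 12671 of all tested genes (85.8%).

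The order of the levels, from the highest, was Adrb1, Adra1d, Adra2c, Adra2a, Adra1b, Adra1a, Adrb3 and Adra2b. It was the same in animals 2, 3, 4 and 5, and animal 1 differed only in having Adra1b above Adra2a. Levels were compared as the log2 ratio of RPKM plus 0.1 within each animal for all 28 pairs of genes. In 27 pairs the ratio had the same sign in all 5 animals, for which an exact sign-flip permutation test (two-sided) gave p = 0.0625, or 0.0648 after Benjamini-Hochberg adjustment over the 28 pairs. With 5 animals and 32 sign patterns, 0.0625 is the smallest p that this test can give, so no pair could pass 0.05.

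The pair that did not keep its sign was Adra2a over Adra1b. The log2 ratios in animals 1 to 5 were -0.21, 0.19, 0.18, 0.44 and 0.18, a mean of 0.16 ± 0.23, higher in 4 of 5 animals (exact p = 0.3125, also after adjustment). These neighbours did not differ beyond their spread. Adrb1 and Adra1d were also close, with log2 ratios of 0.080, 0.32, 0.10, 0.15 and 0.043 and a mean of 0.14 ± 0.11, a ratio of 1.10. The spread that counting noise alone would give for this pair in 1 library is 0.12 on the log2 scale, about the SD of 0.11 seen. The mean of 5 animals carries less counting noise than that.

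The order at the top also rests on the length used. With the union of annotated exons as the length, Adrb1 was at 7.95 ± 0.349 RPKM and below Adra1d in all 5 animals (log2 ratio -0.30). With the longest coding transcript, a length added after the data were seen, Adrb1 was at 9.11 ± 0.400 RPKM and the ratio was -0.10. The same lengths put Adra2a at 4.65 ± 0.438 RPKM, and below Adra1b, with log2 ratios of -0.18 and -0.20. The lengths of Adra1d, Adra2c and Adra2b did not differ between the 3 definitions.

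**Figure D2:**
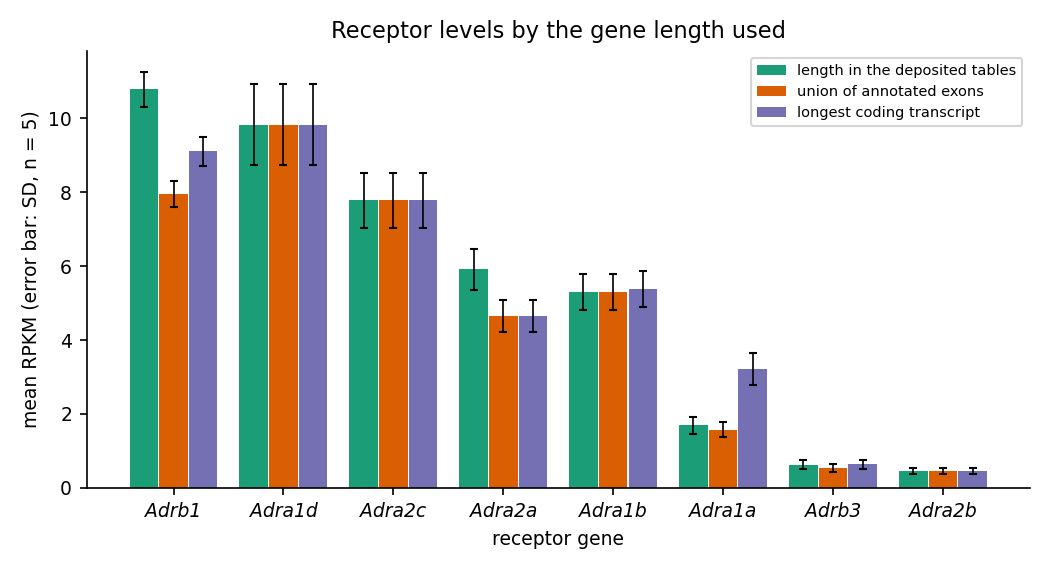
Mean RPKM of each receptor gene with 3 definitions of gene length (bars from 0, error bars SD over 5 animals). Adra1d changes place with Adrb1, which goes from 10.8 to 7.95 RPKM with the union of exons, and Adra1a goes from 1.69 to 3.21 RPKM with the longest coding transcript.

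The remaining neighbours were further apart. Adra1d exceeded Adra2c by 0.33 ± 0.061 on the log2 scale in 5 of 5 animals, the smallest SD of the neighbouring ratios. Counting noise alone gives 0.12 for this pair, so the small SD does not show that the ratio is steady. Adra2c exceeded Adra2a by 0.39 ± 0.25, but by only 0.054 in animal 2, against 0.70 in animal 1. The step from Adra1b to Adra1a was the largest with the deposited length, with log2 ratios between 1.45 and 1.83 and a mean of 1.60 ± 0.19, or 3.03-fold. Adra1a exceeded Adrb3 by 1.32 ± 0.32, or 2.49-fold. With the longest coding transcript these steps were 0.73 and 2.16, so the place of the largest step depends on the length of Adra1a. Adrb3 exceeded Adra2b by 0.39 ± 0.29, and by only 0.062 and 0.072 in animals 3 and 4. The SD of 0.29 is within the 0.40 that counting noise alone gives in 1 library at these depths, leaving out the pseudocount. The mean of 5 animals carries less counting noise than 1 library. From top to bottom, Adrb1 exceeded Adra2b by 4.32 ± 0.26, or 19.9-fold, on this scale. The pseudocount sets part of this value, which was 3.02 with 1 RPKM and 4.57 with 0.01 RPKM added.

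**Figure D3:**
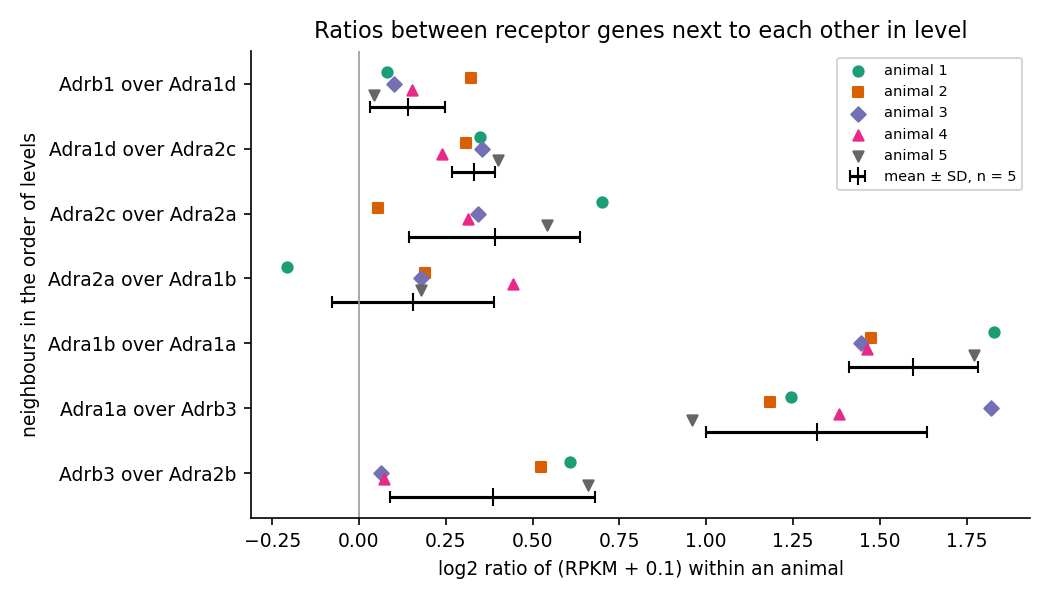
Log2 ratio of RPKM plus 0.1 within each animal for the 7 pairs of receptor genes next to each other in level, with the mean and SD over 5 animals as black bars. Only Adra2a over Adra1b crosses 0, at -0.21 in animal 1, and the widest gap at this length is Adra1b over Adra1a, which is 0.73 with the longest coding transcript.

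Within the alpha2 class, Adra2c over Adra2a had an SD of 0.25 on the log2 scale, against 0.11 from counting noise. Adra2a over Adra2b was 3.46 ± 0.088, but counting noise alone gives 0.29 at the depth of Adra2b, so this small spread shows nothing of how steady the ratio is. No test of the spread of a ratio was made.

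Variation between animals was tested with edgeR's quasi-likelihood fit, which compares each gene's spread with that of genes of like abundance. No receptor was more variable than its abundance predicts: 0 of 8 passed an adjusted p of 0.05, where 45 of 14770 genes (0.305%) did. At an unadjusted p under 0.05, 0 of 8 were more variable, against 802 genes (5.43%), and 0 of 8 were less variable, against 739 genes (5.0%). DESeq2 marked 0 of 8 as dispersion outliers, against 101 genes (0.684%). With limma, 0 of 8 were called on recomputed RPKM, against 10 genes (0.0677%), and 0 of 8 on deposited RPKM, against 27 genes (0.183%). At such shares a count of 0 among 8 genes says little.

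Closest to the threshold were Adra2c, Adra1d and Adra1a, with edgeR adjusted p-values of 0.966, 0.968 and 0.974. Their highest and lowest animals differed by 1.31-fold for Adra2c, 1.35-fold for Adra1d and 1.38-fold for Adra1a, on TMM-scaled CPM. The variance of their counts was 3.55, 3.27 and 3.36 times that of counting noise. For Adra2a and Adra1b the ranges were both 1.26-fold and the variance ratios 2.81 and 2.09. For Adrb1, Adrb3 and Adra2b the variance ratios were 0.727, 0.961 and 0.789, so that their spread was no larger than counting noise, with ranges of 1.14-fold, 1.61-fold and 1.41-fold. The median range over the 8 receptors was 1.33-fold, against 1.19-fold over all genes tested. These medians were not matched for count depth, and a range widens as counts fall.

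The receptors differed in which animals were high, and the patterns described here were chosen after their values were seen. For Adrb1, Adra1d and Adra2c, the highest gene of each class, animals 1 and 5 were highest and animal 2 lowest. This order was found in 3 of 8 receptors and in 507 of 14770 genes (3.43%). For Adra1a, Adra2a and Adra2b, animals 1 and 5 were lowest, as in 1549 of 14770 genes (10.5%). Both sets of 3 were the same with library totals, TMM and median-of-ratios scaling, although animals 4 and 5 were nearly tied for Adra2c. Adra1b and Adrb3 followed neither order. None of the 8 genes passed the variability test, so these are orders of small differences. Within animals 1 to 5, Adra1d exceeded Adra2a by 1.05, 0.36, 0.70, 0.55 and 0.94 on the log2 scale, least in animal 2 and most in animal 1.

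Marker lists of brain regions and cell types also differed between the animals. The mean log2 deviation of 6 cortical markers was 0.11, -0.12, 0.025, -0.078 and 0.065 in animals 1 to 5, highest in animals 1 and 5 and lowest in animal 2, the order of Adra1d. Their summed level ran from 89.4 RPKM in animal 2 to 106 RPKM in animal 1. The 6 striatal markers, of which Adora2a passed the variability test (edgeR adjusted p = 0.044), ran from 193 RPKM in animal 4 to 251 RPKM in animal 1. Markers of noradrenergic neurons took the opposite order, with summed levels of 8.47, 12.4, 9.78, 13.3 and 6.94 RPKM, lowest in animals 5 and 1, as for Adra2a and Adra2b. Brainstem and spinal cord markers did likewise, with 4.81, 8.12, 5.50, 10.7 and 3.55 RPKM, and 2 of 6 passed the test, Slc6a5 and Tph2. Cerebellar markers summed to 53.0 to 79.0 RPKM, again lowest in animals 5 and 1, and 2 of 6 passed, Cbln1 and Calb2. Most of that sum was Calb2, at 52.9 ± 9.51 RPKM. Oligodendrocyte markers stood out in animal 4, with 927 RPKM in sum against 748 to 784 RPKM in the others, and 4 of 5 had an unadjusted edgeR p under 0.05 while none was called. The part of these differences in the receptor values was not tested.

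**Figure D4:**
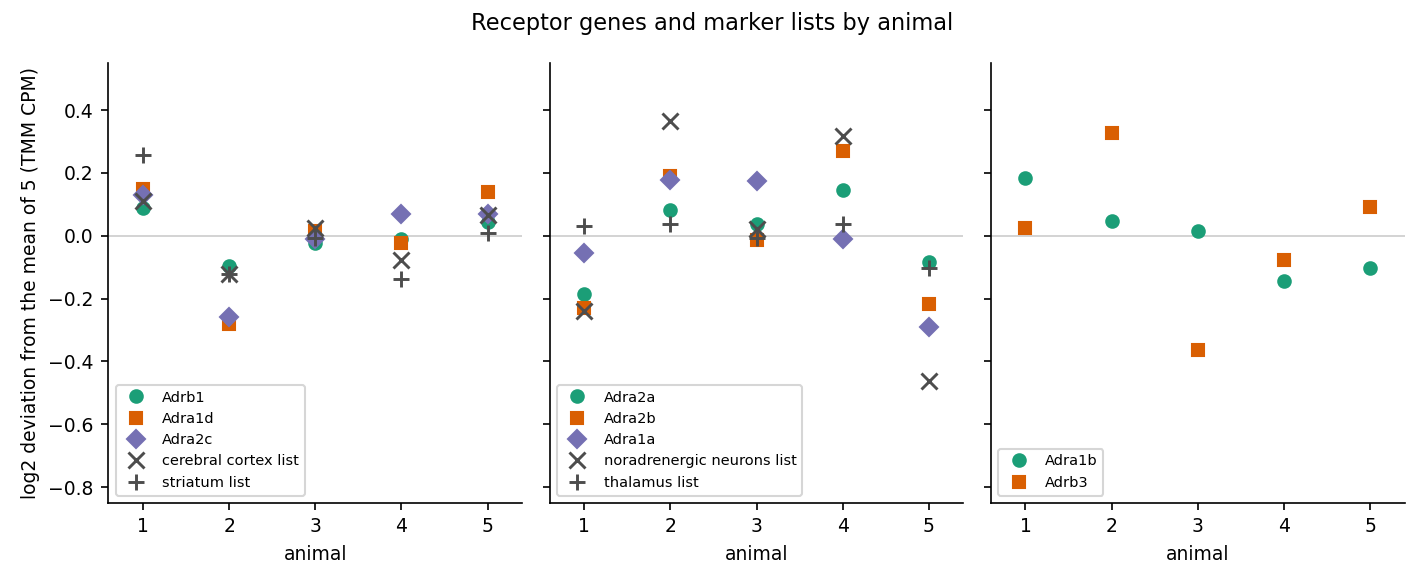
Log2 deviation of TMM-scaled CPM from the mean of 5 animals, for each receptor and, as crosses and plus signs, for the mean of marker lists. Adrb1, Adra1d and Adra2c on the left are lowest in animal 2, as is the cerebral cortex list at -0.12. The striatum list there is lowest in animal 4 at -0.14. Adra2a, Adra2b and Adra1a in the middle are lowest in animals 1 and 5, as is the noradrenergic list (2 tested genes). The thalamus list is lowest in animal 5 (-0.10) but at 0.031 in animal 1. Adra1b and Adrb3 on the right follow neither order.

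Genes whose deviations over the 5 libraries lay closest to a receptor's were named for the highest gene of each class, as a description of 5 points that share library and depth. For Adra1d, the smallest root mean square differences of log2 deviations were those of Fezf2 (0.0324), Ptrhd1 (0.0357) and Papln (0.0370), and 14 genes lay within 0.05. Fezf2 is a transcription factor of deep-layer cortical projection neurons and is also in the cortical list. For Adra2c they were Tinagl1 (0.0229), Mtln (0.0260) and S100a10 (0.0332), with 26 genes within 0.05. For Adrb1 they were Rbfox1 (0.0112), Mrps7 (0.0115) and Syndig1 (0.0125). As many as 925 genes lay within 0.05 of Adrb1, so that closeness to this steady gene singles out little.

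The genes that make, store and remove noradrenaline were mostly low in the hemisphere. Of 12 such genes, 7 had enough counts to be tested, and 6 reached a mean of 1 RPKM. Maob and Maoa, the monoamine oxidases that break the transmitter down and are expressed in many cell types, were highest at 11.3 ± 0.814 and 9.59 ± 0.734 RPKM. Th, the rate-limiting enzyme of catecholamine synthesis, was at 5.32 ± 1.26 RPKM, and also serves dopamine neurons. None of the 7 passed the variability test, but Th, Ddc and Slc18a2 had unadjusted p-values under 0.05 (edgeR adjusted p = 0.257, 0.256 and 0.102). Th measured 4.61, 6.62, 5.12, 6.55 and 3.69 RPKM in animals 1 to 5, with animals 2 and 4 high and animals 5 and 1 low. Slc18a2, the vesicular monoamine transporter, measured 3.30, 5.55, 4.30, 5.12 and 3.05 RPKM, in the same order at both ends.

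The genes that define noradrenergic neurons were near the limit of these libraries. Dbh, the enzyme that turns dopamine into noradrenaline, had 10, 8, 11, 43 and 7 counts in animals 1 to 5. Slc6a2, the noradrenaline transporter, had 14, 4, 5, 51 and 0 counts. Both were highest in animal 4, where Slc6a5 and Gabra6, markers of brainstem and cerebellum, were highest as well, at 3.58 and 1.65 RPKM. Without animal 4 the receptor total was 42.3 ± 1.83 RPKM, against 42.4 ± 1.59 RPKM with it. Single receptors moved in both directions within this total. For example, Adra2a went from 5.91 to 5.76 RPKM and Adra1b from 5.30 to 5.43 RPKM. The part of the brainstem and cerebellar markers in these values was not tested.

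Of 38 genes on the G protein pathways downstream of the receptors, 26 had a higher mean level than Adrb1 and 12 a lower one, with a median of 22.6 RPKM over all 38. In the Gq arm of the alpha1 receptors, 11 of 13 genes reached 1 RPKM, led by Prkcb, a protein kinase C, at 84.7 ± 3.54 RPKM. Gnaq, the alpha subunit of Gq, was at 54.2 ± 1.74 RPKM, and Itpr1, the calcium channel of the stores, at 49.1 ± 2.01 RPKM. In the Gi and Go arm of the alpha2 receptors, 8 of 9 genes reached 1 RPKM, led by the G protein subunits Gnao1 (106 ± 2.18 RPKM), Gnai1 (69.7 ± 1.50 RPKM) and Gnai2 (54.3 ± 2.45 RPKM). In the Gs and cyclic AMP arm of the beta receptors, all 16 genes did, led by subunits of protein kinase A, namely Prkar1a (213 ± 4.81 RPKM), Prkar1b (206 ± 7.68 RPKM) and Prkaca (95.6 ± 2.57 RPKM). Genes at or below receptor levels included Gnas, the alpha subunit of Gs, at 5.39 ± 0.341 RPKM (an uncertain count, as its locus holds overlapping genes), and the potassium channel gene Kcnj5 at 0.604 ± 0.0823 RPKM. These signalling genes serve many receptors, and their levels are not specific to noradrenaline.

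The machinery that switches such receptors off was present too. Of 11 genes matched, 10 reached 1 RPKM, led by Rgs4, which speeds the turn-off of Gi and Gq, at 141 ± 7.18 RPKM. Grk2, the kinase that phosphorylates active beta receptors, was at 58.9 ± 2.21 RPKM, and Arrb1, the arrestin that then binds them, at 37.2 ± 0.848 RPKM. No member of these 4 lists passed the variability test in either direction at an adjusted p of 0.05. The median ranges between animals were 1.12-fold for the Gq arm, 1.14-fold for Gi and Go, 1.11-fold for Gs and cyclic AMP and 1.12-fold for desensitization. They were 1.33-fold for the receptors and 1.19-fold for all genes tested. A range widens as counts fall, and these sets were not matched for depth. The receptors had mean counts of 25.6 to 382, against 4783 for Gnaq and 13123 for Prkar1a, though Plcb2 had only 72.2. These medians therefore do not show that the receptors vary more than their signalling genes.

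Among receptors for amines and acetylcholine, the 8 adrenergic genes had a median below that of the muscarinic receptors (15.0 RPKM). It was above the medians of the serotonin, dopamine and histamine receptors (2.91, 1.02 and 2.71 RPKM). Of 28 serotonin, dopamine, muscarinic and histamine receptor genes, 20 reached a mean of 1 RPKM, with a median of 3.52 RPKM over all 28, against 6 of 8 and 5.60 RPKM for the adrenergic receptors. Above Adrb1 stood 6 of the 28. They were the muscarinic receptors Chrm1 (24.6 ± 1.38 RPKM), Chrm4 (16.8 ± 1.29 RPKM) and Chrm3 (15.0 ± 0.878 RPKM), the histamine receptor Hrh3 (21.0 ± 0.976 RPKM) and the dopamine receptors Drd2 (19.5 ± 2.68 RPKM) and Drd1 (14.4 ± 1.07 RPKM). The highest serotonin receptor, Htr2c, was at 8.35 ± 0.554 RPKM, below Adrb1 and Adra1d. Dopamine receptor RNA was concentrated in 2 of 5 genes, whereas 5 of the 8 adrenergic genes lay within a range from 5.30 to 10.8 RPKM.

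**Figure D5:**
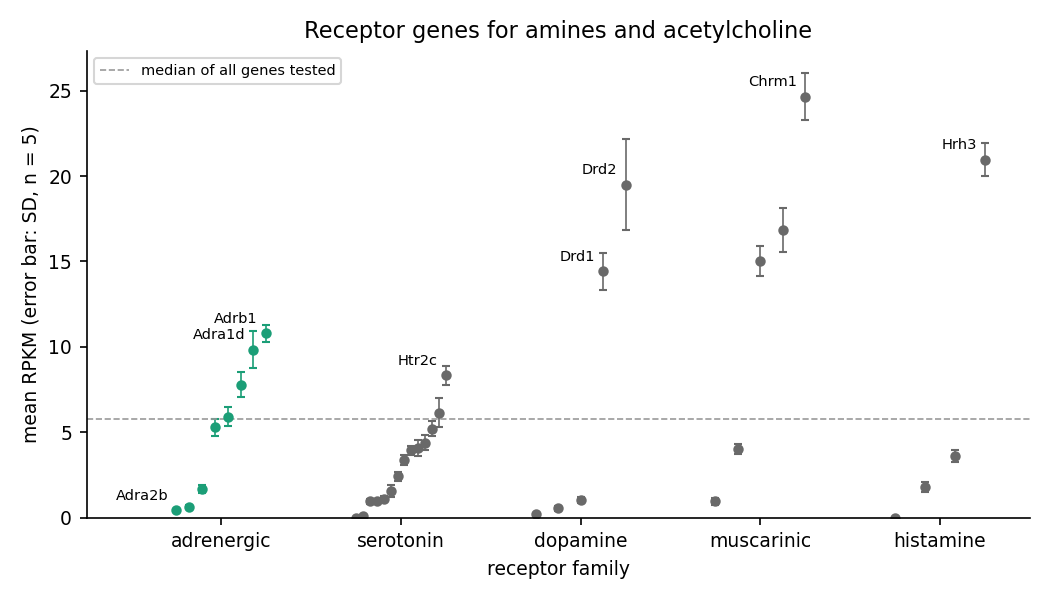
Mean RPKM (points) with SD over 5 animals (bars) of each receptor gene for amines and acetylcholine, by family, ordered by level within a family. Green points are the 8 adrenergic receptors, which reach 10.8 RPKM, and the dashed line is the median of all genes tested at 5.80 RPKM.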

How the data were processed

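The deposited files hold raw counts of 47729 Ensembl genes in each of the 5 libraries and a table of RPKM that the authors made from them, as the values show. The submitters' processing notes name STAR 2.4.1d, featureCounts 1.4.6-p4, CASAVA 1.7 and the build GRCm38. Which annotation release and strand setting were used, and how multi-mapping reads were handled, is not given in the sources used here. All 117232 nonzero deposited RPKM entries were recovered from the counts (tolerance 0.0011 RPKM plus a relative 0.0002) with library totals taken in turn down the table, so most entries were divided by another library's total. The gene length implied by each library then had a median coefficient of variation of 0.00178%, against 10.7% with each library's own total (7333 genes). RPKM was therefore recomputed with own totals and the recovered length, and the deposited RPKM values served as an alternative.

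Symbols, exons and transcripts came from GENCODE M21 (GRCm38). Coding sequences were aligned with MAFFT 7.526. A robust quasi-likelihood fit with an intercept only (edgeR 4.0.16, R 4.3.3, TMM, filterByExpr, legacy settings) covered 14770 genes. The ratio of each gene's quasi-dispersion to the trend at its abundance was referred to an F distribution (4 residual and 15.3 prior df). Each tail was tested one-sided and adjusted by Benjamini-Hochberg over all genes. Range folds and deviations use log2 TMM CPM with a prior count of 2. Alternatives used DESeq2 1.42.0 size factors and dispersion outliers, limma 3.58.1 on log2(RPKM + 0.1), other filters, lengths and pseudocounts, and each library left out. The fit was checked on simulated data. Depth, 13184234 to 15570064 counts, sets counting error only.

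The members, lists and tests were chosen with earlier results of these data known. Named genes are the 8 receptors, the 3 highest members of each pathway list and any called member, the 3 genes nearest to the highest receptor of each class, and genes overlapping a receptor's exons. Gabra6, Gnas, Kcnj5, Ddc, Slc18a2, Dbh, Slc6a2 and the fat cell markers were named after their values were seen.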

Additional observations from a re-analysis of the deposited data

Results flagged for a closer look

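One receptor ratio had an animal that stood apart from the other 4. The log2 ratio of Adrb1 over Adra2c was 0.63 in animal 2 and 0.39 to 0.46 in the others, and the gap to the nearest animal was 0.736 of the whole range. Animal 2 was the lowest for both genes, and more so for Adra2c. In all, 39 groups of 5 values were examined, and chance flags about 1 in 20 groups.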

How the results depend on the processing

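No receptor passed the variability test under any of the 12 alternatives. Genes called over the whole table numbered 45, and 249 without the filter on low counts, 101 as DESeq2 dispersion outliers, 19 with a prior that is not robust, 10 and 27 with limma on recomputed and deposited RPKM, and 18 to 44 with 1 library left out. Without animal 3 the count was 26 and without animal 5 it was 18. Of the 28 receptor pairs, 27 kept their sign in all animals, and 21 with CPM without length, 25 with the union of exons, 26 with the longest coding transcript or deposited RPKM, 27 with either pseudocount and 27 to 28 with 1 library left out (28 without animal 1). Dividing by length decides the order of close neighbours by construction. Mean log2 ratios turned for Adrb1 over Adra1d (-0.30 with the union of exons, -0.10 with the longest coding transcript) and for Adra2a over Adra1b (-0.18 and -0.20). Without length they turned for Adra1d over Adra2c (-0.52), Adra1d over Adra2a (-0.27) and Adrb3 over Adra2b (-0.012). The receptor total of 42.4 RPKM was 38.1 RPKM with the union of exons. The longest coding transcript was chosen after seeing the data. Depth limits Adra2b and Adrb3, whose 19 to 34 counts per library cannot show differences between these animals. Receptor genes were compared within each animal, but samples could not be paired between groups, because there is only 1 group and the numbers only name the samples.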
